A study of Solanum lycopersicum with 27 samples.

Results

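The plasma membrane intrinsic proteins (PIPs) are the aquaporins, or water channel proteins, of the plant cell's outer membrane. Tomato PIP loci were taken by identifier: 10 loci were named, and 9 of them had a row among the 34688 loci of the deposited count table. Solyc08g008050, the other one, was not analysed here. The filter on low counts left 19087 loci to test. Solyc10g084120 passed it only through young control leaves, where it was highest, so its differences from that group are given as counts with no test, and the 8 others passed it without that group as well. The counts are listed by locus identifier with no gene names, so the split into PIP1 (Solyc01g094690, Solyc08g081190 and Solyc12g056220) and PIP2 (Solyc06g011350, Solyc09g007760, Solyc09g007770, Solyc10g084120 and Solyc11g069430) follows the published naming of tomato aquaporins and was not checked against sequence. The naming was used as recalled. It places Solyc03g096290 in PIP1, while the order of the list of named loci sets it beside the PIP2 loci. Its subfamily was therefore left unsettled, and it is given by itself.

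The study followed leaves of wild-type tomato, cultivar Moneymaker, through a progressive water deficit that began when the plants were 50 days old. In the deficit arm water was withheld entirely, and in the control arm pots were brought to soil capacity every other day. Polyadenylated RNA was sequenced from mature leaves, as a single leaflet, at days 4, 5, 8 and 10 of withholding, and from developing leaves taken whole, hereafter young, at day 10. The 27 libraries form 10 groups, 7 of 3 libraries and 3 of 2 libraries (both arms at day 8 and the mature control at day 10).

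PIPs assemble as tetramers in which each subunit forms its own water pore. In maize, PIP2 proteins are efficient water channels in expression assays, while PIP1 proteins alone often give little transport and reach the plasma membrane when a PIP2 partner is present. In leaves, PIPs are known for the passage of water from the veins through living cells, and their activity is also controlled by phosphorylation, pH and trafficking, none of which transcript counts measure.

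One library, the odd library below, went against its label. Replicate 1 of the mature day 10 deficit group correlated with the 2 mature day 10 control libraries at r = 0.994 and 0.993 over log2 values of all tested loci, and with replicates 2 and 3 of its own group at r = 0.888 and 0.884. It was kept under its label, deficit and control below mean what the labels say, and the calls, correlations and most alike loci are also given without it. Libraries held 14725924 to 19642202 counts, of which the PIP loci took 0.0654% to 0.252%. Levels are CPM, counts relative to the library total scaled by TMM library factors and are not per transcript length, so each locus is compared across libraries and not with other loci. Nothing in the labels says whether replicates came from separate plants, so p-values measure only the spread between these samples. In whole leaf tissue, fewer cells of a type and less RNA per cell cannot be told apart.

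**Figure D1:**
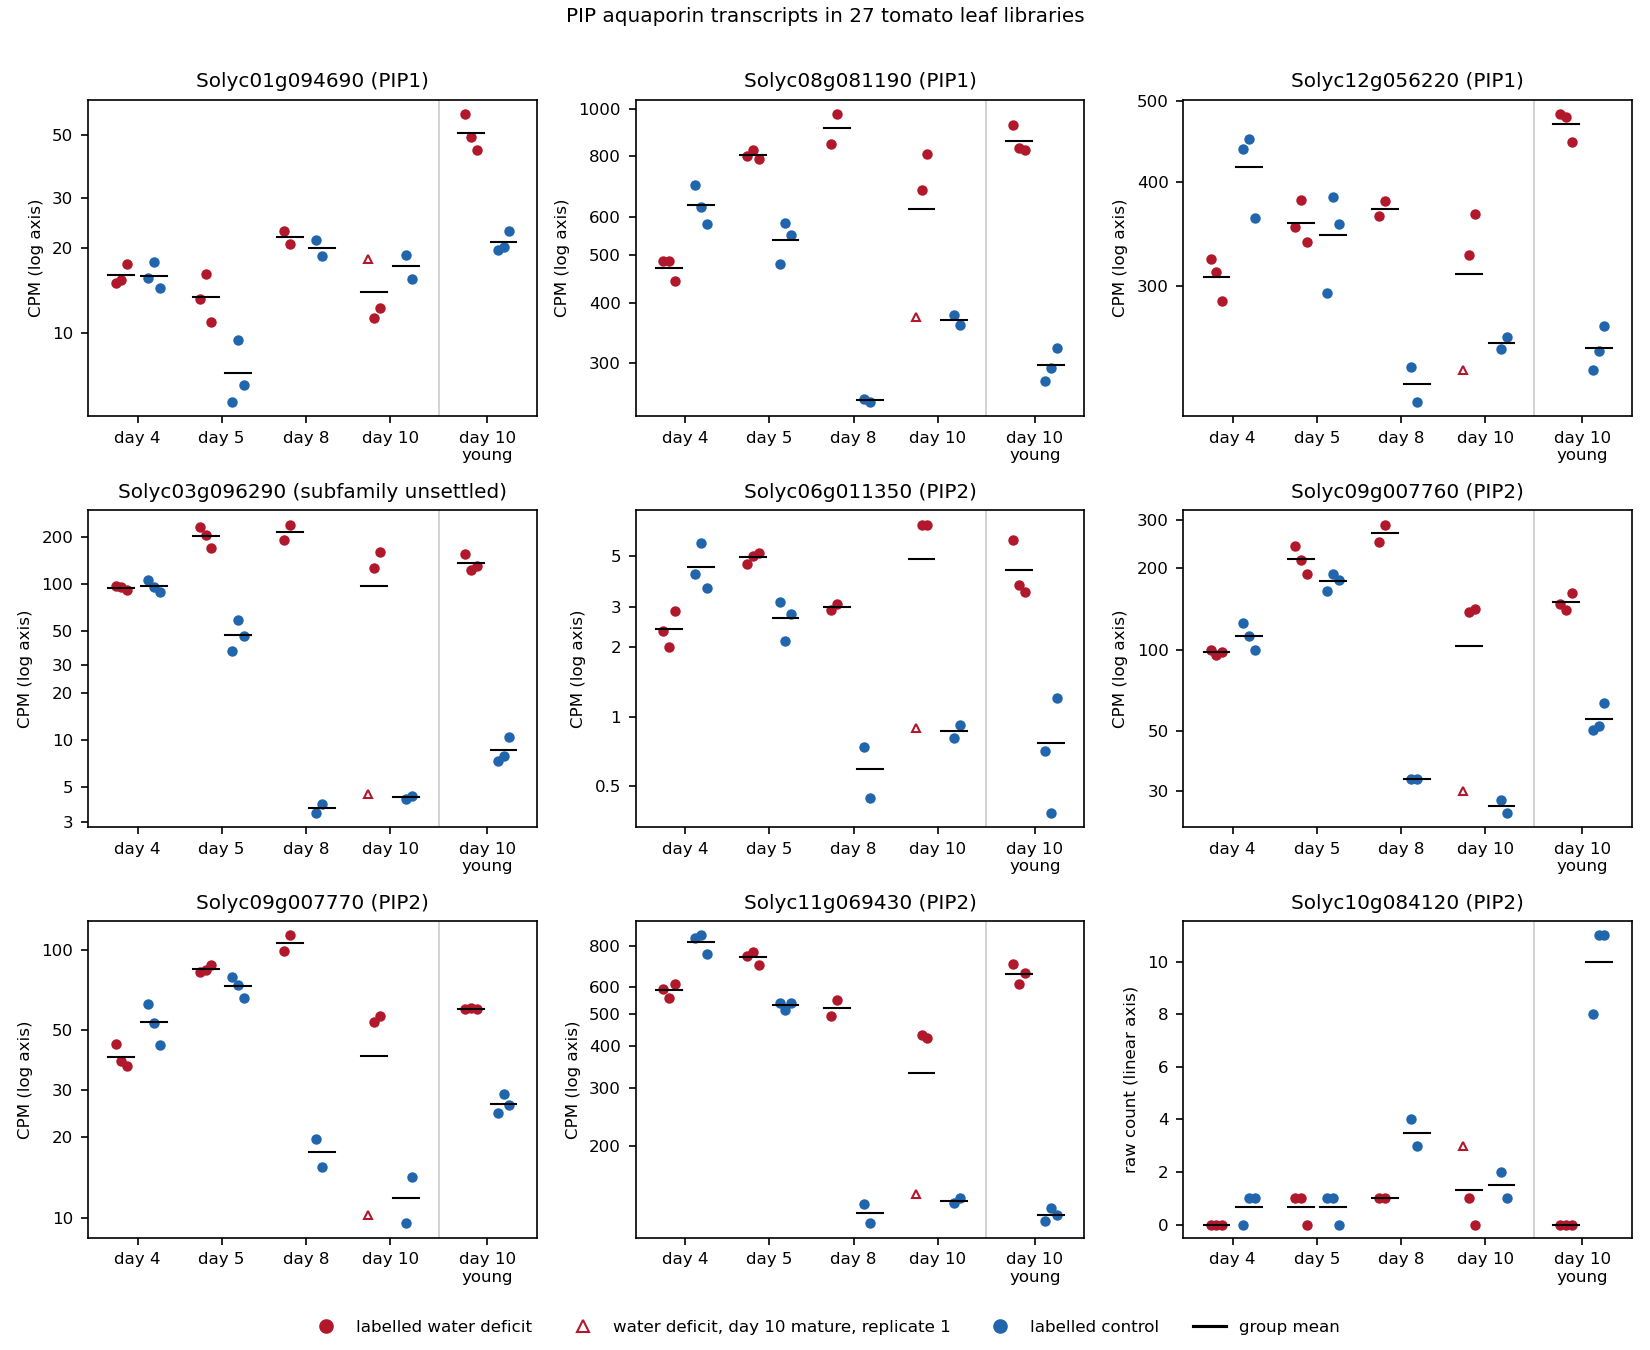
Level of each measured PIP locus in every library, in CPM on a log axis whose range differs between panels (raw counts on a linear axis for Solyc10g084120). Red points are libraries labelled water deficit and blue points libraries labelled control, bars are group means, and the open triangle is replicate 1 of the mature day 10 deficit group. At mature day 10 the triangle sits at or close to the control points in all panels in CPM, PIP1 loci included. Solyc03g096290 had 4.53 CPM there, and Solyc08g081190 had 375 CPM, against 378 and 359 CPM in control.

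At day 8 of withholding, 7 of the 9 loci were higher in deficit than in control mature leaves, 2 of the 3 PIP1 loci and 4 of the 5 PIP2 loci with Solyc03g096290. Of all tested loci, 34.7% were called higher at an adjusted p below 0.05 (quasi-likelihood test of edgeR, adjusted by Benjamini-Hochberg over all tested loci). The median log2 fold change was 2.20 over the 8 loci other than Solyc10g084120, which is nearly uncounted, against 0.02 over all tested loci. Library scaling centres that signed median over all loci. With signs dropped, the median was 2.20 over these 8 loci and 0.70 over all tested loci. Without the library that went against its label, which is not part of this comparison but enters the spread shared by all groups, 7 were higher and 37.7% of all loci were.

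The change at day 8 was widest for Solyc03g096290. It had 192 and 239 CPM in deficit leaves, against 3.43 and 3.89 CPM in control leaves. The groups were far apart, at 58.6-fold (log2 fold change 5.87, SE 0.92, adjusted p = 3.03e-05). Among the PIP2 loci, Solyc09g007760 had 249 and 290 CPM in deficit leaves, against 33.3 and 33.3 CPM in control leaves (8.09-fold, log2 fold change 3.02, SE 0.42, adjusted p = 9.73e-06). Solyc09g007770 had 98.5 and 113 CPM in deficit leaves, against 19.7 and 15.5 CPM in control leaves (6.01-fold, log2 fold change 2.59, SE 0.45, adjusted p = 8.37e-05). These neighbouring identifiers moved side by side, and because the counting of reads shared by near-identical copies is not stated, how reads were divided between them is uncertain. Solyc11g069430 had 491 and 549 CPM in deficit leaves, against 134 and 117 CPM in control leaves (4.13-fold, log2 fold change 2.05, SE 0.29, adjusted p = 9.78e-06). Solyc06g011350, counted at a few CPM, had 2.91 and 3.09 CPM in deficit leaves, against 0.736 and 0.445 CPM in control leaves (5.08-fold, log2 fold change 2.34, SE 0.67, adjusted p = 0.0044). The fitted folds of these 4 PIP2 loci ran from 4.13 to 8.09.

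The PIP1 loci spread more widely at day 8. Solyc08g081190 had 847 and 975 CPM in deficit leaves, against 254 and 250.3 CPM in control leaves (3.61-fold, log2 fold change 1.85, SE 0.21, adjusted p = 1e-06). Solyc12g056220 had 364 and 380 CPM in deficit leaves, against 240.3 and 218 CPM in control leaves (1.62-fold, log2 fold change 0.70, SE 0.15, adjusted p = 0.000446). Solyc01g094690 had 22.9 and 20.6 CPM in deficit leaves, against 21.2 and 18.6 CPM in control leaves. The groups overlapped for that locus, and its log2 fold change of 0.13 (SE 0.22, adjusted p = 0.62) did not pass the test.

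Earlier differences were smaller for the loci called at day 8. Solyc01g094690, not called at day 8, differed more at day 5. At day 4, 1 of the 9 loci passed the test, Solyc12g056220, which was lower in deficit leaves, where 6.48% of all tested loci were called lower. It had 324, 312 and 288 CPM in deficit leaves, against 437, 450.5 and 362 CPM in control leaves, and its log2 fold change was -0.44 (SE 0.12, adjusted p = 0.0229). The call was lost without control replicate 1 or 2, or without deficit replicate 2 or 3, where the quasi-likelihood test called 0 loci and 1 or 2 loci had an unadjusted p under 0.05. Solyc08g081190, Solyc06g011350 and Solyc11g069430 had log2 fold changes of -0.43, -0.89 and -0.47 that did not pass. With the odd library left out, 5 loci were called lower at day 4, among 16.0% of all loci: these 4 and Solyc09g007770.

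At day 5, 3 of the 9 loci were higher in deficit leaves and 14.6% of all tested loci were called higher. Solyc03g096290 had 229.9, 205 and 170.4 CPM in deficit leaves, against 36.9, 58.5 and 46.3 CPM in control leaves (4.27-fold, log2 fold change 2.09, SE 0.61, adjusted p = 0.0149). The PIP1 locus Solyc01g094690 had 13.1, 16.1 and 10.9 CPM in deficit leaves, against 5.71, 9.47 and 6.54 CPM in control leaves (1.85-fold, adjusted p = 0.00185). The PIP1 locus Solyc08g081190 had 799, 823 and 788 CPM in deficit leaves, against 479, 583 and 550.3 CPM in control leaves (1.49-fold, adjusted p = 0.0132). For Solyc03g096290 the lowest deficit library, at 170.4 CPM, lay above the highest control library, at 58.5 CPM. Without control replicate 1 only Solyc01g094690 was called. Leaving out the library that went against its label gave 6 loci called higher, among 21.8% of all loci, adding Solyc06g011350, Solyc09g007760 and Solyc11g069430 at log2 fold changes of 0.85, 0.26 and 0.47.

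**Figure D2:**
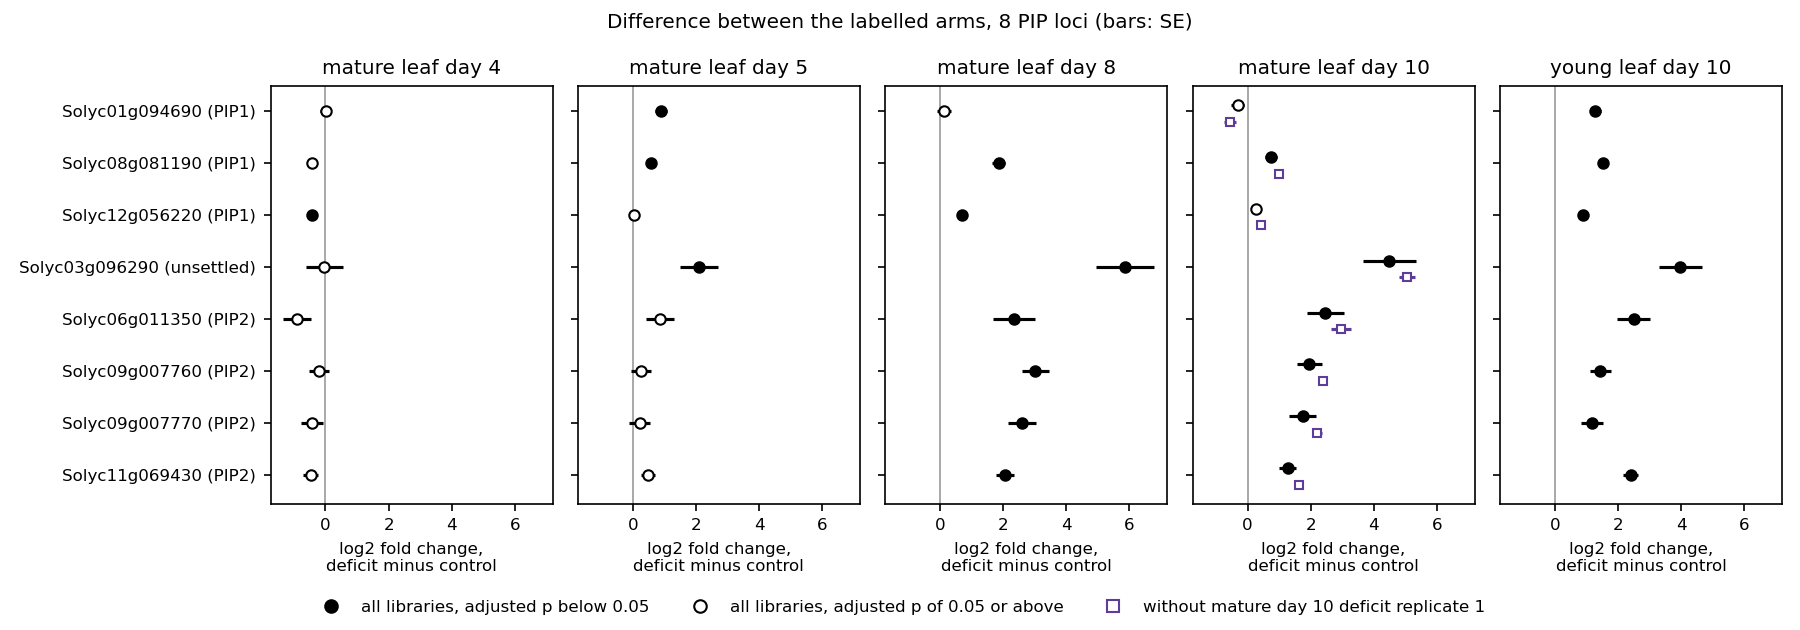
Fitted log2 fold change, deficit minus control, of 8 PIP loci in each mature leaf group and in young leaf, with SE bars; filled points had an adjusted p below 0.05. Purple squares at mature day 10 leave out replicate 1 of the deficit group. Solyc03g096290 has the widest difference at day 8, at 5.87, and the points at day 4 lie at or left of 0.

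At day 10 the mature deficit group held the library that went against its label. With all libraries, 6 of the 9 loci were called higher in deficit leaves, among 22.7% of all tested loci: Solyc08g081190, Solyc03g096290 and the 4 counted PIP2 loci. Without that library, 7 were higher and 1 lower, among 32.6% called higher and 29.8% called lower of all loci. Without control replicate 2 the quasi-likelihood test called 0 members, although 6 had an unadjusted p under 0.05. Without control replicate 3 it called 4. Fitted on these groups alone, with replicate 1, it called 0 members, and 2 had an unadjusted p under 0.05; DESeq2 on all libraries called 6.

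Solyc03g096290 shows the pattern at mature day 10. It had 4.53, 127 and 159.9 CPM in deficit replicates 1, 2 and 3, against 4.18 and 4.39 CPM in control leaves. Replicate 1 was near the control level and the others were far above it. The fold was 22.6 with all libraries (log2 fold change 4.50, SE 0.84, adjusted p = 0.0034) and 33.2 without replicate 1. Solyc11g069430 had 143.7, 430.6 and 423 CPM in deficit leaves, against 135 and 139 CPM in control leaves, and its log2 fold change was 1.27 (SE 0.27, adjusted p = 0.0034) or 1.63 without replicate 1. Solyc09g007760 had 30.0, 138 and 142 CPM in deficit leaves, against 27.9 and 25.0 CPM in control leaves, and its log2 fold change was 1.96 (SE 0.39, adjusted p = 0.0034) or 2.39 without replicate 1. In all 3 loci deficit replicates 2 and 3 stood well above the controls. For Solyc09g007770, Solyc06g011350 and Solyc08g081190 the deficit and control ranges overlapped through replicate 1, and the log2 fold changes were 1.76, 2.47 and 0.75 with all libraries, or 2.21, 2.96 and 1.01 without it.

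The remaining PIP1 loci depended on that library for their call. Solyc12g056220 had 238, 327 and 366 CPM in deficit leaves, against 253 and 261 CPM in control leaves, and its log2 fold change was 0.27 (adjusted p = 0.12), or 0.43 and called without replicate 1. Solyc01g094690 had 18.2, 11.3 and 12.2 CPM in deficit leaves, against 18.8 and 15.5 CPM in control leaves, and its log2 fold change was -0.30 (adjusted p = 0.24), or -0.56 and called without replicate 1. It was the PIP1 locus with a negative value there.

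In young leaves at day 10, the 8 loci other than Solyc10g084120 were higher in deficit than in control, where 36.2% of all tested loci were called higher. Without the odd library these 8 were called higher as well (38.0% of all loci). Solyc03g096290 had 154.6, 122 and 129 CPM in young deficit leaves, against 7.39, 7.88 and 10.4 CPM in young control leaves (15.8-fold, log2 fold change 3.98, SE 0.67, adjusted p = 4.26e-05). The PIP2 locus Solyc11g069430 had 704, 616 and 660.3 CPM in young deficit leaves, against 119, 130.0 and 124 CPM in young control leaves (5.30-fold, adjusted p = 1.05e-07). The PIP2 locus Solyc06g011350 had 5.84, 3.73 and 3.47 CPM in young deficit leaves, against 0.712, 0.383 and 1.20 CPM in young control leaves (5.63-fold, adjusted p = 0.000228). The neighbours Solyc09g007760 and Solyc09g007770 were 2.72-fold and 2.26-fold higher in young deficit leaves.

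All 3 PIP1 loci were higher in young deficit leaves. Solyc01g094690 had 59.2, 49.1 and 44.3 CPM in young deficit leaves, against 19.6, 20.1 and 22.9 CPM in young control leaves (2.44-fold, adjusted p = 3.75e-06). This was its highest group mean, 50.9 ± 7.64 CPM (SD, n = 3), with no overlap with the next group, deficit mature leaf at day 8. Solyc08g081190 had 924, 828 and 824 CPM in young deficit leaves, against 276, 294 and 323 CPM in young control leaves (2.88-fold, adjusted p = 2.83e-07). Solyc12g056220 had 483, 478 and 446 CPM in young deficit leaves, against 238, 251 and 269 CPM in young control leaves (1.86-fold, adjusted p = 3.1e-06).

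Solyc10g084120, a PIP2 locus, was barely counted. It had 52 counts in the 27 libraries, no more than 11 in any, and 0 in 10 libraries. Of these, 30 fell in young control leaves, which had 8, 11 and 11 counts, while the 3 young deficit libraries had 0 each. Young control replicates 2 and 3 were the libraries that carried it past the filter, and without either one it was not tested. A difference between young control leaves and other groups was therefore built into its selection and is given without a test. A count of 0 over the group allows up to 3 counts. The 30 control counts carry counting error and this selection as well, so no fold is given. It was not called between the arms at any day in mature leaf, where no group held more than 7 counts.

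In mature leaf, 8 of the 9 loci differed between the arms by an amount that changed with day, among 57.0% of all tested loci; the exception was Solyc10g084120 (adjusted p = 0.40). The number was 8 without the library that went against its label (73.6% of all loci). Adjusted p for these 8 ran from 1.78e-05 for Solyc08g081190 to 0.0067 for Solyc01g094690. The tests over days called PIP loci in both arms, and such calls were common among all tested loci as well. Among control mature leaves 8 loci changed over days 4 to 10 (75.1% of all tested loci), or 8 without that library (81.2%), and among deficit leaves 5 did (49.3% of all tested loci), or 8 without that library (64.6%). The deficit groups fitted alone gave 0 calls by the quasi-likelihood test, with 5 loci at an unadjusted p under 0.05, and DESeq2 on all libraries gave 5.

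In control leaves most PIP loci were lower at days 8 and 10 than at day 4, with which each later day was compared in both arms. At day 8, 7 loci were lower than at day 4 in the control arm, among 32.4% of all tested loci, and Solyc10g084120 was called higher, among 31.1%, on 7 counts at day 8 and 2 counts at day 4. That call on few counts was lost with DESeq2, with a replicate block, and without control day 4 replicate 1 or day 8 replicate 1 or 2, and the locus was not tested at a mean CPM of at least 1. At day 10, 7 loci were lower than at day 4, among 27.6% of all tested loci. With the odd library left out, 7 loci were lower and Solyc10g084120 higher at day 8 (35.9% and 33.8% of all loci), and 7 were lower at day 10 (30.8%). In control leaves Solyc03g096290 averaged 96.6 ± 8.55 CPM at day 4 (SD, n = 3), 3.66 ± 0.324 CPM at day 8 and 4.29 ± 0.149 CPM at day 10 (SD, n = 2 each). That was 26.3-fold lower at day 8 (log2 fold change -4.72, SE 0.86, adjusted p = 0.000154). Solyc11g069430 had 134 and 117 CPM at day 8 in control leaves, against 842, 859 and 754 CPM at day 4, which was 6.50-fold lower (adjusted p = 6.25e-07). Solyc08g081190 and Solyc12g056220, of the PIP1 group, fell by 1.33 and by 0.86 on the log2 scale in these control leaves at day 8. In control leaves Solyc01g094690 averaged 7.24 ± 1.97 CPM at day 5 (SD, n = 3), against 15.9 ± 1.70 CPM at day 4 (SD, n = 3), a log2 fold change of -1.14 (adjusted p = 0.000281). It was the locus called at day 5 in the control arm, among 10.2% of all tested loci called lower. With the odd library left out, 6 loci were lower at day 5 and 2 were higher, Solyc09g007760 and Solyc09g007770, among 19.9% and 17.9% of all loci.

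In deficit leaves the median log2 fold change from day 4 to day 8 was 0.70 over the 8 loci other than Solyc10g084120, and in control leaves it was -1.68. At day 5 of the deficit, Solyc08g081190 and Solyc09g007760 were higher than at day 4 (2 of 9 loci; 5.83% of all tested loci), at log2 fold changes of 0.77 and 1.14. At day 8, these and Solyc09g007770 were higher (3 of 9 loci; 11.8% of all tested loci), at log2 fold changes of 0.95, 1.46 and 1.40. In deficit leaves Solyc09g007760 averaged 97.7 ± 2.27 CPM at day 4 and 216 ± 25.2 CPM at day 5 (SD, n = 3 each), and 269 ± 28.4 CPM at day 8 (SD, n = 2). With the odd library left out, 6 loci were higher at day 5 (12.6% of all loci) and 6 at day 8 (22.4%).

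At day 10, with all libraries, Solyc11g069430 was lower than at day 4 in deficit leaves, by -0.83 on the log2 scale (SE 0.23, adjusted p = 0.0085; 17.4% of all tested loci were called lower). Solyc10g084120 was called higher (19.9% of all tested loci), on 4 counts at day 10 and 0 at day 4, of which 3 came from the library that went against its label; DESeq2 did not call it. Without that library 5 loci were higher and 2 lower at day 10 (23.7% and 22.5% of all loci). Solyc06g011350 had the highest of these log2 fold changes, 1.50, and the loci called lower were Solyc01g094690 at -0.44 and Solyc11g069430 at -0.46. The calls at day 5 also turned on single libraries: 1 locus was called without any one of the deficit libraries of days 4 and 5 other than day 5 replicate 3. The calls at day 10 fell to 1 without any one of the day 4 deficit libraries.

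**Figure D3:**
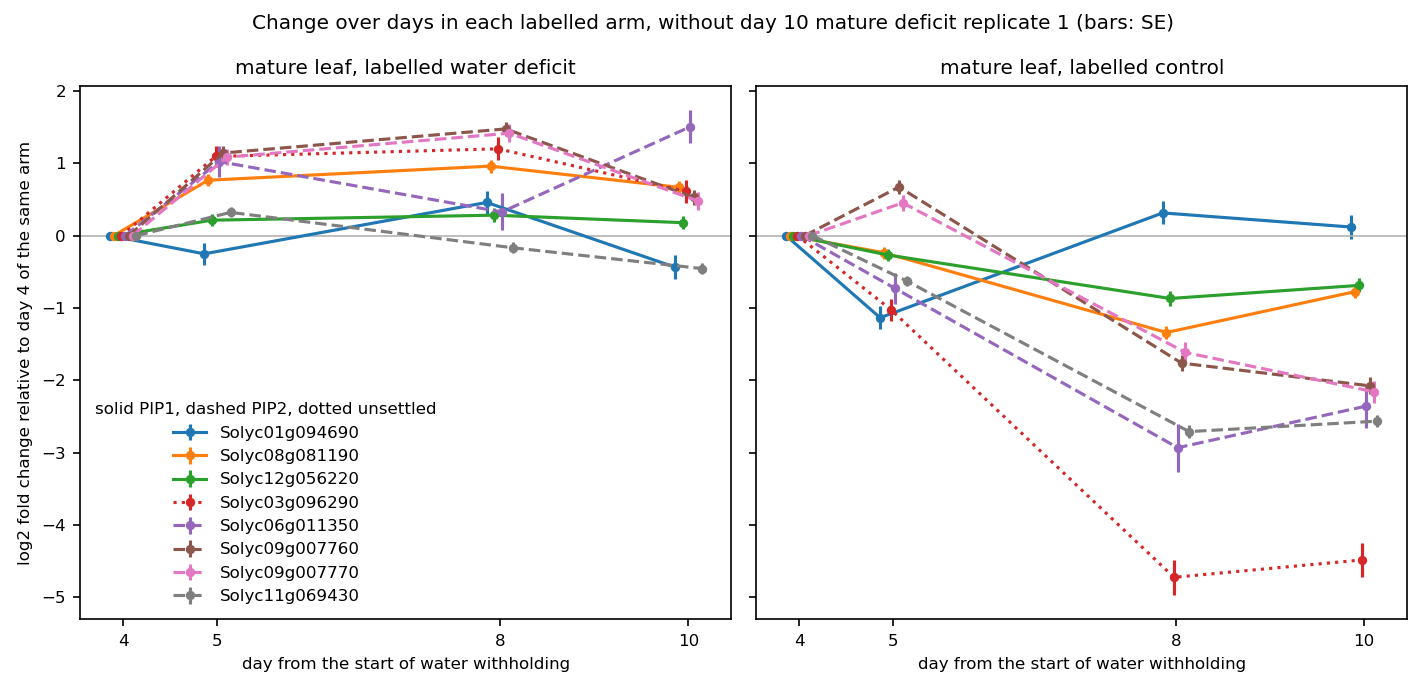
Fitted log2 fold change relative to day 4 of the same arm, for 8 PIP loci in mature leaf on a linear day axis, deficit on the left and control on the right, with SE bars; the odd library is left out. Lines join the fitted values of days 4, 5, 8 and 10. In control leaves Solyc03g096290 reaches -4.72 at day 8, while in deficit leaves no locus goes below -0.46.

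The difference between the arms at day 10 differed between young and mature leaves for 4 of the 8 loci other than Solyc10g084120. Of all tested loci, 15.0% were called. Young leaves were taken whole and mature leaves as a single leaflet, so age and the part sampled cannot be told apart. The tests treat young and mature libraries as independent, which was not checked. The difference was more positive in young than in mature leaves for all 3 PIP1 loci, by 1.59 for Solyc01g094690 (SE 0.27, adjusted p = 0.000537), 0.78 for Solyc08g081190 (adjusted p = 0.04) and 0.62 for Solyc12g056220 (adjusted p = 0.027) on the log2 scale. It was also more positive for the PIP2 locus Solyc11g069430, by 1.13 (adjusted p = 0.0309). Leaving out replicate 1 of the mature deficit group gave 7 called loci, among 21.6% of all loci. The 3 PIP1 loci and Solyc11g069430 were again more positive in young leaves, by 0.46 to 1.84, while Solyc03g096290, Solyc09g007760 and Solyc09g007770 were more negative, by -1.08, -0.96 and -1.04. Leaving out any one of the other libraries of these groups, except mature deficit replicates 2 and 3, gave 1 to 3 calls among these 8, and fitting these groups alone gave 1.

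Within the deficit arm, 4 loci were higher in young than in mature leaves at day 10, among 19.7% of all tested loci. Solyc01g094690 averaged 50.9 ± 7.64 CPM in young deficit leaves and 13.9 ± 3.77 CPM in mature deficit leaves (SD, n = 3 each), 3.66-fold higher (adjusted p = 1.12e-07). Solyc11g069430, Solyc12g056220 and Solyc08g081190 followed, at log2 fold changes of 0.99, 0.60 and 0.47. When replicate 1 of the mature group was left out, Solyc08g081190 was not called (log2 fold change 0.19), and Solyc06g011350 was lower in young leaves (log2 fold change -0.66, adjusted p = 0.0135). The 3 still called higher were then among 21.2% of all loci, and the 1 lower among 20.3%.

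Within the control arm the quasi-likelihood test called 0 of the 8 loci other than Solyc10g084120 between leaf ages, among 17.2% of all tested loci. Of these 8, 2 had an unadjusted p under 0.05, and DESeq2 called 2. Solyc10g084120 had 30 counts over 3 young libraries and 3 counts over 2 mature libraries, and is given without a test. Solyc09g007760 averaged 55.3 ± 7.02 CPM in young control leaves (SD, n = 3) and 26.5 ± 2.07 CPM in mature control leaves (SD, n = 2), and Solyc09g007770 averaged 26.7 ± 2.22 CPM (SD, n = 3) and 11.9 ± 3.34 CPM (SD, n = 2). The adjusted p was 0.0573 for Solyc09g007760 and 0.0644 for Solyc09g007770. Without the library that went against its label these and Solyc03g096290 were called higher in young leaves and Solyc08g081190 lower, 4 of these 8, among 34.0% of all loci called.

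The PIP1 share of the counts was the percentage that PIP1 loci made of PIP1 and PIP2 counts together, with Solyc03g096290 left out. It compares libraries and not the subfamilies' abundance, because counts are not per length, and it was not tested. At day 4 it was 52.2% ± 2.12 in deficit leaves and 51.9% ± 0.676 in control leaves, and at day 5 it was 53.0% ± 0.845 in deficit leaves and 53.1% ± 2.95 in control leaves (SD, n = 3 each). The arms overlapped at both days. At day 8 it was 59.2% ± 0.292 in deficit leaves and 73.9% ± 0.889 in control leaves (SD, n = 2 each), with no overlap. At mature day 10 the deficit libraries had 77.3% in replicate 1 and 63.6% ± 2.53 over the other replicates (SD, n = 2), against 78.4% ± 0.658 in control leaves (SD, n = 2). In young leaves it was 61.2% ± 1.33 in deficit and 73.3% ± 0.669 in control (SD, n = 3 each).

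The sums behind the share differed between the arms for both subfamilies at day 8. PIP1 loci summed to 1304 ± 100.1 CPM in deficit leaves and 501 ± 20.1 CPM in control leaves, and PIP2 loci to 898 ± 79.8 CPM in deficit leaves and 178 ± 15.3 CPM in control leaves (SD, n = 2 each). In young leaves PIP1 loci summed to 1379 ± 78.7 CPM in deficit and 571 ± 41.1 CPM in control, and PIP2 loci to 874 ± 49.6 CPM in deficit and 208 ± 11.1 CPM in control (SD, n = 3 each). The lower share in deficit leaves therefore went with higher sums of both subfamilies, and with a wider ratio between the arms for PIP2. The median log2 fold change at day 8 was 0.70 over the 3 PIP1 loci and 2.47 over the 4 counted PIP2 loci, and in young leaves 1.28 and 1.92. The 3 PIP1 values at day 8 were far apart, from 0.13 to 1.85. With Solyc03g096290 added to PIP1, the PIP1 median was 1.275 at day 8 and 1.41 in young leaves. With it added to the 4 counted PIP2 loci instead, the PIP2 median was 2.59 at day 8 and 2.41 in young leaves. These are the values of Solyc09g007770 and Solyc11g069430. With Solyc03g096290 counted as PIP1 the day 8 shares were 62.8% in deficit leaves and 74.0% in control leaves, and counted as PIP2 they were 54.0% in deficit leaves and 73.5% in control leaves, so the arms kept their order.

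**Figure D4:**
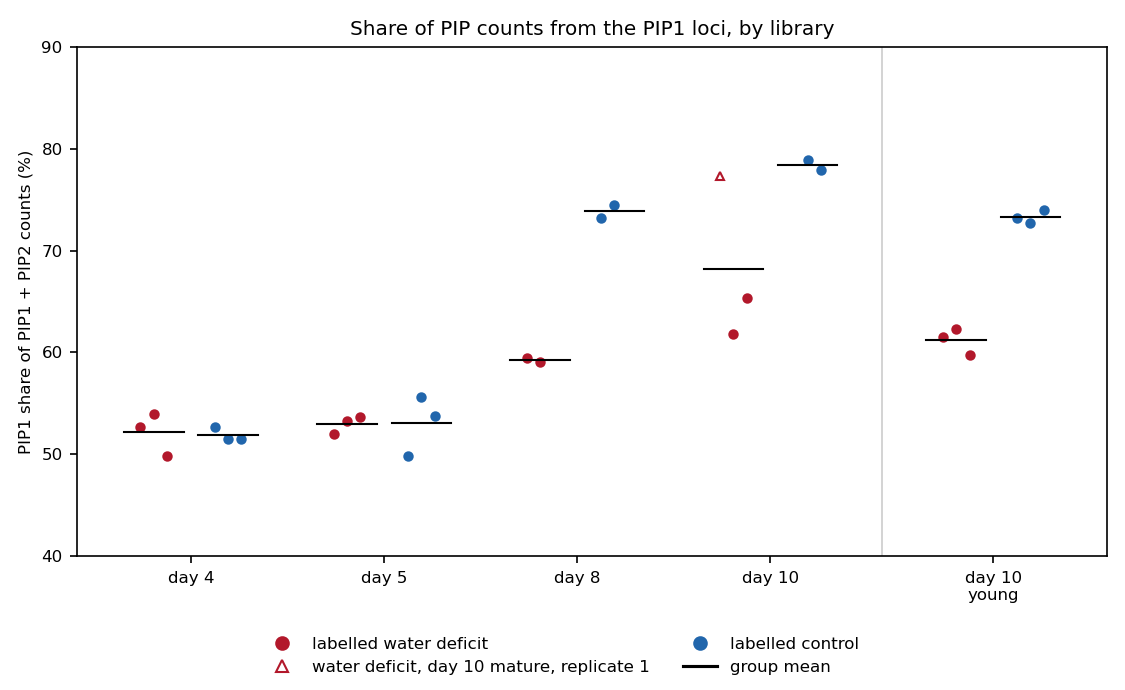
PIP1 share of PIP1 and PIP2 counts in each library, in percent, by day and leaf age, with Solyc03g096290 left out. Red points are deficit and blue points control, and the open triangle is replicate 1 of the mature day 10 deficit group, at 77.3%. The arms overlap at days 4 and 5 and part at day 8, where deficit leaves average 59.2% and control leaves 73.9%.

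Across the 27 libraries 7 of the loci varied together: pairwise Pearson r of their log2 CPM ran from 0.76 to 0.98, highest for Solyc09g007760 and Solyc09g007770, and from 0.74 to 0.98 without the odd library. Solyc01g094690 did not join them, with r between -0.14 and 0.25 with each of the others (-0.14 to 0.27 without that library). Solyc10g084120, on its few counts, ran the other way, with r between -0.80 and -0.52 with these 7 loci (-0.80 to -0.51 without that library). It passed the filter only through young control leaves, which held 30 of its 52 counts and where these 7 loci were low. Its direction was thus partly built into its selection and is no support for an opposite pattern. All these r values describe libraries that share groups and depth, and carry no test. Among the 11692 other loci with a mean of at least 10 CPM, Solyc02g092930.1 was most like the PIP1 sum (r = 0.963 over 27 libraries) and Solyc02g081150.1 most like the PIP2 sum (r = 0.990 over 27 libraries). Over the 26 libraries without the odd one both were again the most alike, at r = 0.962 and 0.989. Solyc02g081150.1 averaged 34.0 CPM in deficit leaves and 5.71 CPM in control leaves at day 8, and 36.5 CPM in deficit and 6.27 CPM in control young leaves.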

How the data were processed

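The authors deposited 1 table of whole-number counts by locus, which was read as raw counts since its column sums differ. Libraries were made and sequenced as paired-end reads of 100 nt by a service provider, per the labels' protocols. DESeq2 is named in the submitters' processing notes with no role or version; the aligner, counter, annotation, genome build and use of strand are not given in the sources used here. Columns were matched to libraries by sample description and groups were taken from sample titles.

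The analysis used edgeR 4.0.16 and limma 3.58.1 under R 4.3.3. filterByExpr kept 19087 loci, holding 99.97% of counts. All 27 libraries entered 1 model with a coefficient for each group and TMM scaling, and 17 contrasts were tested by the quasi-likelihood F test with Benjamini-Hochberg adjustment over all tested loci. SE was the log2 fold change over the root of its F value. Log2 CPM used a prior count of 2. A count of 0 allows up to 3 counts, which covers counting error only. The members, their subfamilies, the contrasts and the most alike loci were chosen with earlier results of these data known; every measured member is named. The fit was tested on simulated data.

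The alternatives tried were DESeq2 1.42.0, scaling by RLE or upper quartile, a minimum mean CPM of 1 or no filter, a fit of the compared groups alone, a replicate block, and each library left out. Of 13 pairs of deficit and control libraries with the same replicate number, 2 deviated together at r above 0.1 (range -0.14 to 0.16). Numbers were therefore not used to pair libraries. Young and mature libraries with the same number were not compared in this way. Identifiers matched 0 of 41476 genes of the reference table (SLM_r2.1), so no coordinates, sequences, leaf markers or other aquaporins are given.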

Additional observations from a re-analysis of the deposited data

Results flagged for a closer look

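The difference between deficit and control changed with day in mature leaf for 8 PIP loci, among 57.0% of all tested loci. The adjusted p comes from the interaction test of edgeR over all libraries. It was 1.78e-05 for Solyc08g081190, 0.00054 for Solyc12g056220 and 0.0067 for Solyc01g094690, the PIP1 loci. It was 0.000496 for Solyc03g096290. Among PIP2 loci it was 0.00185 for Solyc06g011350, 0.000164 for Solyc09g007760, 0.000692 for Solyc09g007770 and 0.000105 for Solyc11g069430. Solyc08g081190 had log2 fold changes of -0.43, 0.58, 1.85 and 0.75 at days 4, 5, 8 and 10, the last being 1.01 without the odd library. The loci did not share 1 course. Solyc01g094690 had 0.0042, 0.89, 0.13 and -0.30 at these days, and Solyc06g011350 had 2.34 at day 8 and 2.47 at day 10.

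The difference also changed with leaf age at day 10, by the same kind of test, which called 15.0% of all tested loci. The adjusted p was 0.000537 for Solyc01g094690, 0.0400 for Solyc08g081190, 0.027 for Solyc12g056220 and 0.0309 for Solyc11g069430. Solyc10g084120 also passed, at 0.0155, but it was tested only because of its level in young control leaves, one of the groups compared, so this value is no support for a difference. Without replicate 1 of the mature day 10 deficit group the adjusted p of Solyc10g084120 was 0.12, and Solyc03g096290, Solyc09g007760 and Solyc09g007770 passed. Of all loci, 21.6% were then called.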

How the results depend on the processing

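The 7 loci called at mature day 8, the 8 called for the change of the arms' difference with day and the 8 called over days in control leaves kept their number under every scaling, filter, tool and block tried, with the compared groups alone and with each library left out. Over the alternatives that keep all libraries and groups, the log2 fold changes of single loci kept their sign and side of the threshold in 690 cases, lost a call in 8, gained one in 7 and changed sign in 7. Of the last, Solyc01g094690 at day 4 was -0.0024 with RLE scaling and with DESeq2, -0.0096 without a filter and -0.0027 with a mean CPM of at least 1, and the others came with the replicate block.

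With the compared groups alone, which leaves fewer samples to estimate the spread and keeps out the library that went against its label where it is not compared, edgeR called 5 loci at day 4, 7 at day 5, 5 between leaf ages in control, 7 and 7 at days 5 and 8 against day 4 in deficit, and 6 at day 5 against day 4 in control. Where that library is compared it called 0 at mature day 10 (2 at an unadjusted p under 0.05, against 6 by DESeq2 on all libraries), 1 for leaf age by arm, 1 between leaf ages in deficit, 0 over days in deficit (5 unadjusted; 5 by DESeq2) and 0 at day 10 against day 4 in deficit (0 unadjusted; 2 by DESeq2). DESeq2 called 2 loci between leaf ages in control and 2 at day 5 against day 4 in control. A mean CPM of at least 1, which removes Solyc10g084120, left 0 between leaf ages in control (2 unadjusted), and 1 at day 10 against day 4 in deficit, as did no filter. The cause of the other shifts was not tested. The share of all loci called was not counted under these alternatives or under the replicate block. Shifts in the PIP calls therefore cannot be told from shifts over all loci.

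Replicate numbers were not seen to pair deficit with control libraries. Whether they pair young with mature libraries of an arm was not checked. With the replicate block the call at day 10 against day 4 in deficit fell to 1 locus, leaf age by arm to 4 and day 8 against day 4 in control to 7, and the number called in the other comparisons was as without it. Under the block Solyc12g056220 between leaf ages in control was 6.3e-05, and Solyc03g096290 and Solyc09g007770 at day 10 against day 4 in deficit were -0.067 and -0.022 on the log2 scale.

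With single libraries left out, calls ran from 0 to 5 at day 4, 1 to 6 at day 5, 0 to 8 at mature day 10, 2 to 7 for leaf age by arm, 0 to 5 between leaf ages in control, 4 to 8 over days in deficit, and, against day 4, 1 to 6, 2 to 6 and 1 to 7 at days 5, 8 and 10 in deficit and 1 to 8 at day 5 in control. Where a group was left with 1 library, that library is assumed to vary like the other groups. These counts include Solyc10g084120 wherever it was tested and called. Apart from the odd library, no share of all loci called was counted for fits with a library left out, here or above. The ranges therefore cannot tell a shift of the PIP loci from a shift over all loci. Some log2 fold changes changed sign. Between the arms at day 4, Solyc01g094690 ran from -0.065 to 0.084 and Solyc03g096290 from -0.090 to 0.037, Solyc12g056220 at day 5 from -0.066 to 0.13, and Solyc10g084120 at mature day 10 from -1.34 to 0.38. For leaf age by arm, Solyc06g011350 ran from -0.48 to 0.50 and Solyc03g096290 from -1.08 to 0.042. Between leaf ages, Solyc12g056220 ran from -0.084 to 0.0030 and Solyc06g011350 from -0.66 to 0.13 in control, and Solyc03g096290 from -0.096 to 1.04 and Solyc06g011350 from -0.66 to 0.21 in deficit. At day 10 against day 4 in deficit, Solyc09g007770 ran from -0.31 to 0.48, Solyc12g056220 from -0.13 to 0.18, Solyc03g096290 from -0.52 to 0.61 and Solyc09g007760 from -0.22 to 0.53, and in control Solyc01g094690 from -0.032 to 0.25.

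The PIP1 share moved by more than 1 SD with membership. With Solyc03g096290 as PIP1 it was 55.0% in deficit and 54.0% in control at day 4, 56.9% in deficit at day 5, 62.8% in deficit at day 8 and 63.4% in young deficit leaves. With it as PIP2 it was 49.1% in deficit and 49.6% in control at day 4, 48.6% in deficit at day 5, 54.0% in deficit at day 8, and 57.7% in young deficit and 72.5% in young control leaves. Without the most abundant locus of each subfamily it was 69.8% in deficit and 71.7% in control at day 4, 54.8% in deficit and 57.9% in control at day 5, 51.1% in deficit and 82.8% in control at day 8, 87.4% in control at mature day 10, and 70.7% in young deficit and 76.7% in young control leaves. Depth limits Solyc10g084120, with 52 counts in all, and Solyc06g011350, at 20 to 269 counts over a group.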
